A study of Mus musculus with 11 samples.

Results

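The genes described here are those of the Wnt pathway carried by a mouse expression array: Wnt ligands, their receptors, secreted inhibitors and the main factors inside the cell. They were chosen by gene symbol, taking every probe set annotated with exactly 1 symbol among Wnt ligands, Frizzled receptors, Frzb and the Sfrp genes, Dkk genes, Lrp5 and Lrp6, Axin1 and Axin2, Ctnnb1, Lef1 and the Tcf7 genes. This gave 46 probe sets of 37 genes, out of 12488 probe sets and 8251 genes with a symbol of their own on the array. By role there were 16 probe sets of 14 ligands, 14 of 10 receptors, 7 of 7 secreted inhibitors, 3 of 3 factors of the cytoplasm and 6 of 3 nuclear factors. No measured value entered the choice.

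RNA of the mouse embryonic stem (ES) cell line R1 was measured before and after differentiation towards cells that contain nestin, a filament protein found in neural progenitors. The 4 groups were undifferentiated ES cells (n = 3, replicates 1, 5 and 9), cells differentiated for 4+8 days (n = 3, replicates 1, 2 and 3), cells differentiated for 4+11 days (n = 3, replicates 4, 8 and 12) and the fibroblast feeder layer (n = 2, replicates 6 and 10). Per the labels, the ES cells were of this single line, were kept on mouse embryonic fibroblasts, and were studied as independent triplicate cultures, so that undifferentiated samples may hold feeder RNA. No genotype or added agent is named for any group, and whether both feeder samples came from separate cultures is not said, so the spread between them may be technical.

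Wnt proteins are secreted lipid-modified signals that bind Frizzled receptors together with the co-receptors Lrp5 and Lrp6. In the canonical branch this stops the destruction of beta-catenin, the product of Ctnnb1, by a complex built on Axin, and beta-catenin then acts in the nucleus with Lef1 and Tcf proteins. Sfrp proteins and Frzb bind Wnts outside the cell, while Dkk1 blocks the co-receptors. In early embryos the pathway helps to form mesoderm and to pattern the neural tube, and in mouse ES cells Tcf7l1 restrains genes of self-renewal.

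Values are quantile-normalised intensities, and differences are on the scale of log2(intensity + 8), which understates the change of dim probe sets. Of the 46 probe sets, 33 of 29 genes exceeded an intensity of 33.4 on at least 2 arrays and were tested. A probe set is called where its adjusted p, over the 8940 tested on the whole array, was below 0.05. The 4+8 day arrays had a scan session and a chip lot of their own, so group and session cannot be told apart in any comparison with them. The remaining 8 arrays had 1 session and lot in common and went through 3 fluidics (washing and staining) runs. Run 3 held only 4+11 day replicate 12, so 4+11 day differences fitted with run as a block (blocked by run) rest on replicates 4 and 8. A different wash protocol was used for 4+11 day replicate 12 and undifferentiated replicate 9. Feeder replicate 10 carries the ES line as its source name, and its title was used. Before normalisation the trimmed means of the arrays ran from 86.0 to 199.9, with the 4+8 day arrays at the top (199.7 to 199.9). Replicates correlated at 0.810 to 0.884 at 4+8 days (Spearman's rho over probe sets, which are no independent replicates), with the lowest minimum of the 4 groups. The median SD of log2 intensity over all tested probe sets was also largest at 4+8 days (0.45). The 8 ES cell markers summed to between 13926 and 15498 in undifferentiated arrays and to at most 485 on any other. Cardiac muscle markers (6 genes) summed to between 5979 and 13968 at 4+8 days and to at most 290.3 in undifferentiated cells. Of 8 neural progenitor markers 1 rose and 1 fell at 4+8 days against undifferentiated cells, and 1 rose at 4+11 days. Nes, which encodes nestin, had mean intensities of 192 in undifferentiated cells, 281 at 4+8 days, 460.3 at 4+11 days and 461.8 in feeder cells.

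Against undifferentiated cells, 15 of the 33 tested Wnt probe sets were called at 4+8 days, 10 higher and 5 lower. The share of all tested probe sets called was 37.1%, with 17.2% higher and 19.9% lower. At 4+11 days 4 were called, 3 higher and 1 lower, where 18.7% of all probe sets were called (9.22% higher, 9.44% lower). Between both times, 3 were higher and 7 lower at 4+11 days, against 23.1% of all probe sets (12.2% higher, 10.8% lower). In feeder cells 9 were higher and 1 lower than in undifferentiated cells, against 20.4% (10% higher, 10.3% lower). Between 4+11 day and feeder cells 1 was higher and 1 lower, against 2.93% (1.13% higher, 1.80% lower). Leaving out 1 array took the 4+8 day count to between 10 and 15, the 4+11 day count to between 0 and 3, the count between both times to between 5 and 11, the feeder count to between 1 and 6 and the last to between 0 and 2. With values as deposited, where the median of all probe sets at 4+8 days moved to 1.07, 28 were higher and 1 lower at 4+8 days, and 2 were higher and 16 lower between both times. Of all probe sets called as deposited, 93.6% were higher at 4+8 days and 5.49% between both times. Of the 33 tested, 3 exceeded the filter in 1 group only, Wnt8a and Fzd6 at 4+8 days and Lrp6 (103271_at) in feeder cells, and their calls are included in these counts. The median log2 difference of the 33 probe sets was 0.60 at 4+8 days and 0.30 at 4+11 days against undifferentiated cells, beside 0.014 and −0.029 over all probe sets. In whole-culture RNA, fewer cells of a type and less RNA per cell cannot be told apart. Altogether 18 probe sets of 17 genes were called in at least 1 comparison and 15 in none.

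**Figure D1:**
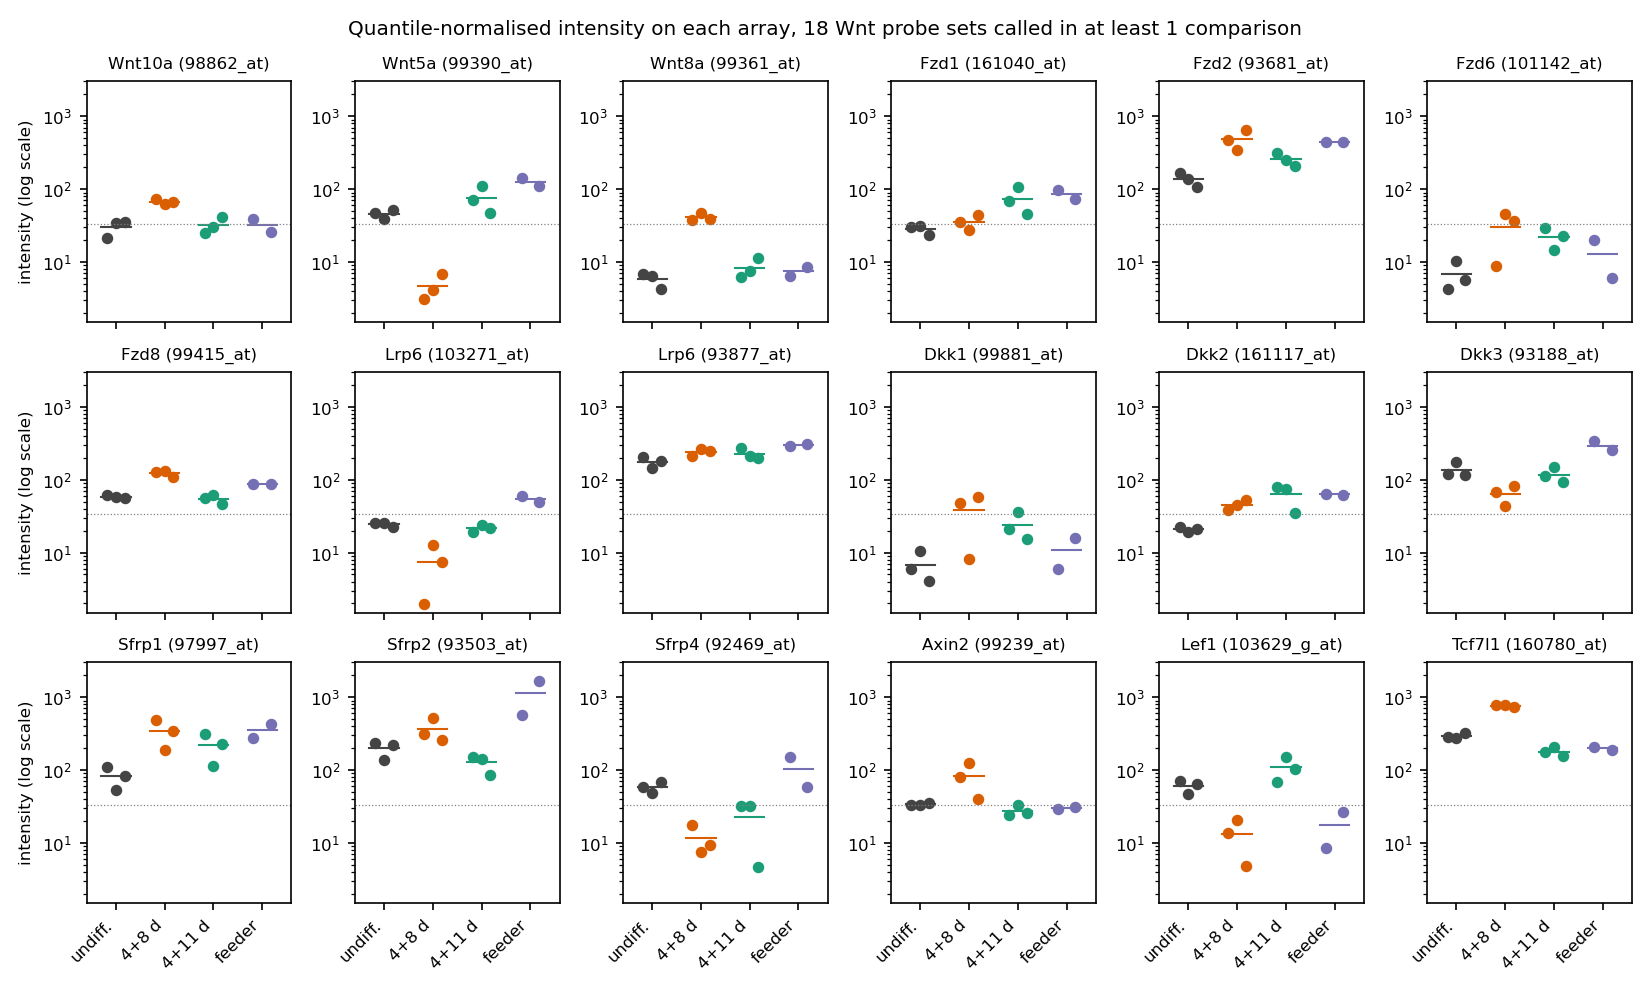
Each panel shows 1 of the 18 called probe sets, with 1 point per array (quantile-normalised intensity, log axis), a line at each group mean and a dotted line at the filter of 33.4. The 4+8 day arrays lie below every other array for Wnt5a and above every other array for Wnt8a and Tcf7l1 (160780_at).

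Among the ligands, Wnt5a, Wnt8a and Wnt10a were called, each mainly at 4+8 days. Wnt5a, a ligand best known for signalling without beta-catenin, had intensities of 47.0, 39.5 and 51.5 in undifferentiated cells, and of 3.13, 4.19 and 6.91 at 4+8 days. It read 70.7, 110.2 and 47.0 at 4+11 days and 142 and 112 in feeder cells. All 3 values at 4+8 days lay below every other array. The log2 difference at 4+8 days was −2.09 ± 0.27 (SE, adjusted p = 0.000459) against undifferentiated cells. From 4+8 to 4+11 days Wnt5a rose by 2.66 ± 0.27 (adjusted p = 0.000787), and both differences passed under every alternative run. In feeder cells it was higher than in undifferentiated cells by 1.32 ± 0.31 (adjusted p = 0.0147), by 1.29 blocked by fluidics run and by 1.55 and 1.01 inside runs 1 and 2. That call was lost without feeder replicate 6 or 10 (adjusted p up to 0.130). The difference between 4+11 day and undifferentiated cells was 0.57 ± 0.27 (adjusted p = 0.175). Blocked by run, which gives no weight to 4+11 day replicate 12 (47.0, the lowest of that group), it was 0.81 and passed (adjusted p = 0.0475).

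Fibroblast markers moved unevenly beside Wnt5a. The 13 listed genes summed to between 12045 and 17914 in undifferentiated arrays, 12118 to 43663 at 4+8 days, 16048 to 29524 at 4+11 days and 45488 to 53915 in feeder arrays. At 4+8 days 4 of the 13 rose and 3 fell. Thy1, a surface protein of these fibroblasts, read 834, 719 and 654 in undifferentiated cells and 31.8, 6.97 and 7.78 at 4+8 days, while the collagen Col1a1 read 3616, 3213 and 2106 against 10278, 2826 and 14356. Of the same list, Mmp3 read 1121, 2487 and 1015 in undifferentiated cells and 3.08, 5.15 and 21.2 at 4+8 days. Cxcl1 read 332, 2210 and 1857 in undifferentiated cells and 13.2, 2.8 and 65.9 at 4+8 days. The part of feeder cells in the undifferentiated levels of Wnt5a, Dkk3 and Sfrp4, described here and further on, was not tested.

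Wnt8a, a ligand of the early primitive streak, had intensities of 6.89, 6.43 and 4.23 in undifferentiated cells and of 38.3, 46.9 and 38.8 at 4+8 days. It returned to 6.28, 7.55 and 11.3 at 4+11 days and was at 6.55 and 8.44 in feeder cells. No array outside the 4+8 day group was above the filter, so Wnt8a was tested because it was high there, and its differences describe that. The rise was 1.83 ± 0.18 (adjusted p = 0.000135), and the fall from 4+8 to 4+11 days was −1.60 ± 0.18 (adjusted p = 0.00109). Both passed under every alternative run, no filter included.

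Wnt10a, a canonical ligand of skin and tooth, read 21.4, 34.0 and 35.1 in undifferentiated cells, 73.2, 63.4 and 66.5 at 4+8 days, 25.0, 30.5 and 42.1 at 4+11 days, and 39.3 and 25.6 in feeder cells. No array of another group reached the lowest of the 4+8 day values. The rise was 1.01 ± 0.23 (adjusted p = 0.00845) and passed under every alternative run. The fall to 4+11 days, −0.92 ± 0.23 (adjusted p = 0.0214), was lost without 4+8 day replicate 1 or 4+11 day replicate 4 or 8 (with an adjusted p of up to 0.0859), and with only both groups in the fit (0.0696).

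The other 4 tested ligands were not called in any comparison. Wnt1, which organises the midbrain-hindbrain boundary, had intensities of 74.6, 64.7 and 42.6 in undifferentiated cells, 152, 396 and 107 at 4+8 days, and 72.1, 235 and 40.1 at 4+11 days. Values at 4+8 days did not overlap the undifferentiated ones, yet the difference of 1.54 ± 0.59 did not pass (adjusted p = 0.0647). Wnt11, a ligand of gastrulation and heart formation, read 11.2, 38.1 and 6.76 in undifferentiated cells and 91.1, 81.7 and 45.4 at 4+11 days, again without overlap. Its difference of 1.73 ± 0.59 did not pass (adjusted p = 0.0695). Blocked by run, without weight on replicate 12, the lowest at 4+11 days, it reached 2.11 (adjusted p = 0.0164). Inside runs 1 and 2 it was 1.73 and 2.60. Wnt3 and Wnt3a, canonical ligands of the primitive streak, spanned 20.9 to 118.0 and 4.45 to 119 over all 11 arrays.

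Of the receptors, Fzd2 changed in most comparisons. It had intensities of 166, 136 and 106 in undifferentiated cells, 469, 347 and 639.6 at 4+8 days, 317, 249.7 and 206 at 4+11 days, and 443 and 439 in feeder cells. Every array of the other 3 groups lay above the undifferentiated ones. The rise was 1.75 ± 0.27 at 4+8 days (adjusted p = 0.000984) and 1.66 ± 0.30 in feeder cells (adjusted p = 0.00491), and both passed under every alternative run. The feeder difference was 1.71 blocked by run and 1.51 and 1.97 inside runs 1 and 2. Its rise at 4+11 days was 0.88 ± 0.27 (adjusted p = 0.0448), with 1.08 blocked by run (adjusted p = 0.0119) and 1.04 and 1.18 inside runs. That call was lost without any one of the 6 arrays compared (adjusted p up to 0.163), without the filter and without the arrays of the other wash protocol (up to 0.159). The fall from 4+8 to 4+11 days, −0.87 ± 0.27 (adjusted p = 0.0412), was lost without 4+8 day replicate 1 or 3 or any of the 4+11 day replicates (up to 0.126), and under 4 other settings (up to 0.141).

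Fzd1 followed another course. It read 30.5, 31.1 and 23.6 in undifferentiated cells and 35.3, 27.7 and 44.3 at 4+8 days, where the groups overlapped, but 68.9, 107 and 45.8 at 4+11 days and 97.2 and 73.9 in feeder cells. The rise at 4+11 days was 1.11 ± 0.28 (adjusted p = 0.0234), with 1.39 blocked by run and 0.99 and 1.87 inside runs 1 and 2. It was lost without 4+11 day replicate 4 or 8 or any undifferentiated replicate (adjusted p up to 0.0901), and without the other wash protocol (0.0542). In feeder cells Fzd1 was higher by 1.36 ± 0.31 (adjusted p = 0.0147), with 1.37 blocked by run and 1.44 and 1.37 inside runs. That call was lost without feeder replicate 6 or 10 or undifferentiated replicate 9 (up to 0.133).

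Fzd8, a receptor of the anterior neural plate, was raised at 4+8 days. Its intensities were 61.1, 57.6 and 56.5 in undifferentiated cells, 126.5, 129.8 and 110.4 at 4+8 days, 55.9, 61.1 and 45.9 at 4+11 days, and 87.0 and 86.8 in feeder cells. All 4+8 day values lay above all others. The rise of 0.97 ± 0.17 (adjusted p = 0.00181) and the fall to 4+11 days of −1.07 ± 0.17 (adjusted p = 0.00354) passed under every alternative run. Fzd6, which helps to orient cells in epithelia, read 4.23, 10.4 and 5.76 in undifferentiated cells and 8.73, 45.1 and 36.2 at 4+8 days, so the groups overlapped. It read 29.0, 14.7 and 22.6 at 4+11 days, and 19.96 and 6.15 in feeder cells. It passed the filter through 2 of the 4+8 day arrays alone, so its difference of 1.22 ± 0.43 from undifferentiated cells is given as a description. That call was just past the threshold (adjusted p = 0.0499) and was lost with no filter, without 4+8 day replicate 2 or 3 or any undifferentiated replicate (up to 0.138), and under 3 further settings (up to 0.152).

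The co-receptor Lrp6 was read by a dim and a bright probe set that disagreed. The dim one (103271_at) had intensities of 25.2, 25.7 and 22.7 in undifferentiated cells, 1.95, 12.9 and 7.34 at 4+8 days, 18.9, 24.1 and 21.6 at 4+11 days, and 59.4 and 48.8 in feeder cells. It passed the filter through the feeder arrays alone. Its fall at 4+8 days was −1.14 ± 0.25 (adjusted p = 0.00664) and was lost with values as deposited or scaled to a common trimmed mean (adjusted p up to 0.793). Its rise to 4+11 days, 1.0 ± 0.25 (adjusted p = 0.0209), was lost without any of the 4+11 day replicates (up to 0.0560) and under 5 other settings (up to 0.791). The bright one (93877_at) read 207, 142 and 181 in undifferentiated cells and 210.2, 264 and 250 at 4+8 days, a difference of 0.44 ± 0.20 that did not pass (adjusted p = 0.112). It read 272, 209.7 and 197 at 4+11 days and 293 and 312 in feeder cells. In feeder cells the bright set was higher than in undifferentiated cells by 0.76 ± 0.23 (adjusted p = 0.0406). The dim set was tested only because it was high there, so its feeder difference of 0.93 ± 0.28 (adjusted p = 0.0445) is a description and no support for the bright one. Blocked by run these were 0.77 for the bright and 0.93 for the dim set, and inside runs 1.01 and 0.88 for the dim and 0.74 and 0.76 for the bright set. Each feeder call was lost without any one of the 5 arrays compared (up to 0.249 for the dim and 0.198 for the bright set), with no filter and without the other wash protocol, and that of the dim set also under 2 further settings.

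Among receptors never called, Fzd3 was read by a bright probe set (98169_s_at, 93.6 to 311 over all arrays) and a dim one (98348_at, 5.42 to 66.5). Fzd4 (93459_s_at) spanned 94.6 to 247, Fzd7 11.6 to 92.4 and Fzd9 21.5 to 117.

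**Figure D2:**
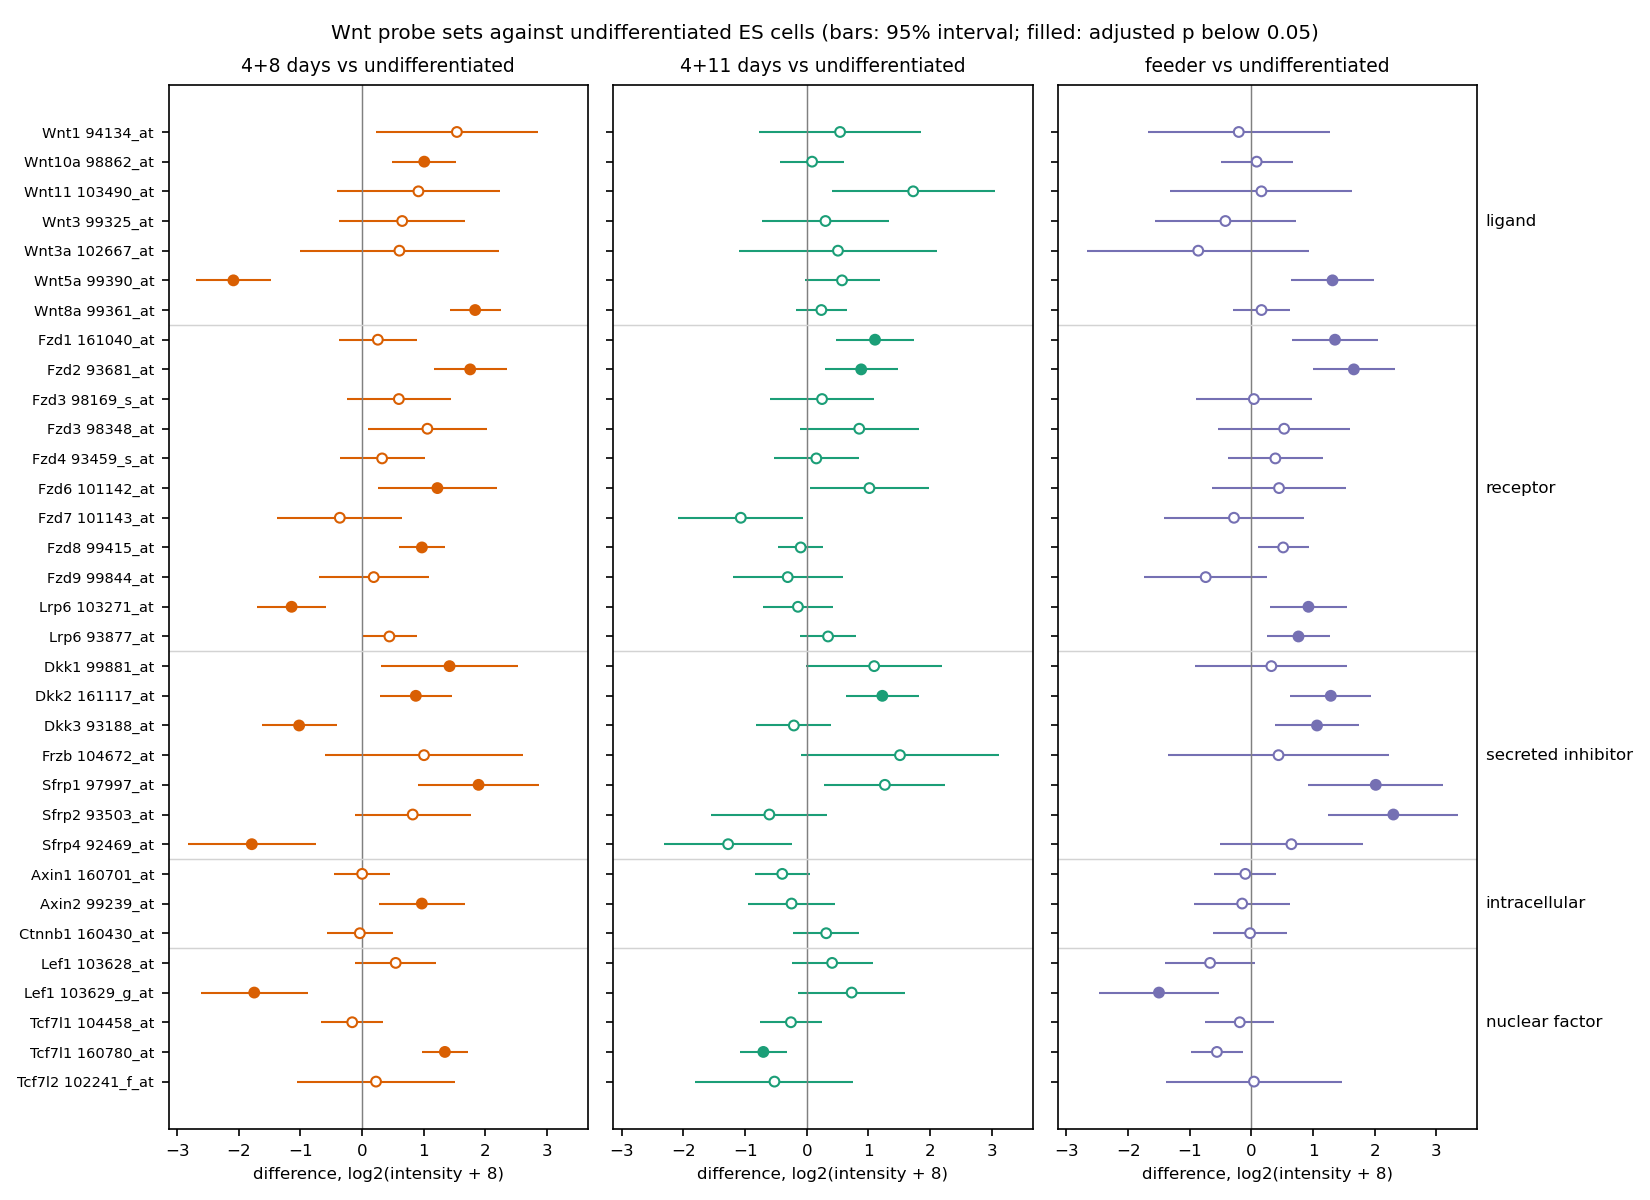
Differences of the 33 tested probe sets from undifferentiated cells on the log2(intensity + 8) scale, with 95% intervals, grouped by role, for 4+8 day, 4+11 day and feeder cells. Filled points were called, 15, 4 and 10 of them, and the 3 panels share the same undifferentiated arrays.

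All 7 secreted inhibitors were tested and 5 were called at 4+8 days, Dkk1, Dkk2 and Sfrp1 higher and Dkk3 and Sfrp4 lower, where 37.1% of all probe sets were called (17.2% higher, 19.9% lower). Sfrp1, which binds Wnts, had intensities of 110.1, 53.6 and 83.9 in undifferentiated cells, 487, 189 and 340.2 at 4+8 days, 317, 113 and 229 at 4+11 days, and 276 and 434 in feeder cells. Only at 4+11 days did 1 replicate come close to the undifferentiated range. The rise at 4+8 days was 1.89 ± 0.44 (adjusted p = 0.00855) and passed under every alternative run. The 4+11 day difference of 1.27 ± 0.44 did not pass (adjusted p = 0.0727). In feeder cells Sfrp1 was higher by 2.02 ± 0.49 (adjusted p = 0.0184), with 2.05 blocked by run and 1.73 and 2.27 inside runs 1 and 2. The feeder call was lost without feeder replicate 6 or 10 or undifferentiated replicate 5 or 9 (up to 0.145), and without the other wash protocol (0.0729).

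Dkk2, a Dkk that can act for or against Lrp6, was higher in all 3 groups than in undifferentiated cells. It read 22.6, 19.2 and 21.2 in undifferentiated cells, 38.8, 44.8 and 52.3 at 4+8 days, 79.3, 75.2 and 34.9 at 4+11 days, and 63.7 and 61.9 in feeder cells. No other array fell into the undifferentiated range. The rise was 0.87 ± 0.26 at 4+8 days (adjusted p = 0.0270), lost without 4+8 day replicate 3 or any undifferentiated replicate (up to 0.0763). At 4+11 days it was 1.23 ± 0.26 (adjusted p = 0.0116), with 1.56 blocked by run and 1.59 and 1.51 inside runs, and was lost without replicate 4 (0.0557). In feeder cells it was 1.29 ± 0.30 (adjusted p = 0.0141), with 1.29 blocked by run and 1.31 and 1.26 inside runs, and was lost without feeder replicate 6 or 10 (up to 0.0991).

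Dkk1, the classical Lrp6 blocker and itself a target of beta-catenin, read 5.85, 10.4 and 4.06 in undifferentiated cells, 47.9, 8.04 and 57.4 at 4+8 days, 21.3, 35.4 and 15.5 at 4+11 days, and 5.86 and 15.9 in feeder cells. At 4+8 days replicate 2 stayed within the undifferentiated range. Dkk1 exceeded the filter only on 2 of the 4+8 day arrays and 1 of the 4+11 day arrays. It was therefore tested mainly because it was high at 4+8 days, and its difference is a description. The rise of 1.42 ± 0.50 (adjusted p = 0.0466) was lost without 4+8 day replicate 1 or 3 or any undifferentiated replicate (up to 0.138). It was also lost under 3 other settings, no filter among them (up to 0.152).

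Dkk3 and Sfrp4 were lowest at 4+8 days. Dkk3, a divergent Dkk that does not block Lrp6 like Dkk1, had intensities of 119.7, 174 and 118 in undifferentiated cells, 67.8, 42.9 and 82.2 at 4+8 days, 110.5, 148 and 94.0 at 4+11 days, and 334 and 253 in feeder cells. Arrays of the 4+8 day group lay below all others, and feeder arrays above. The fall was −1.02 ± 0.27 (adjusted p = 0.0156). It was lost without undifferentiated replicate 5 (0.0601) and under the scaling by trimmed means, and turned to 0.10 with values as deposited (adjusted p = 0.787). The feeder level was higher by 1.06 ± 0.31 (adjusted p = 0.0354), with 1.08 blocked by run and 1.17 and 1.06 inside runs. That was lost without feeder replicate 6 or 10 or undifferentiated replicate 1 or 9 (up to 0.237), and without the other wash protocol (0.123). Sfrp4 read 58.5, 48.8 and 67.9 in undifferentiated cells, 17.8, 7.50 and 9.35 at 4+8 days, 32.0, 31.7 and 4.72 at 4+11 days, and 150.3 and 59.5 in feeder cells. Its fall of −1.79 ± 0.47 at 4+8 days (adjusted p = 0.0140) was lost without undifferentiated replicate 9 (0.0510), with values as deposited and under the scaling by trimmed means (up to 0.291).

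Sfrp2, a Wnt-binding protein of mesenchyme, was highest in the feeder arrays. Its intensities were 238, 138 and 219 in undifferentiated cells, 317, 514 and 256 at 4+8 days, 153, 144 and 86.4 at 4+11 days, and 575 and 1679 in feeder cells. Both feeder arrays lay above all others, replicate 6 by little over 4+8 day replicate 2, and feeder against 4+8 day cells was not tested. Feeder cells exceeded undifferentiated cells by 2.30 ± 0.47 (adjusted p = 0.00910), with 2.21 blocked by run and 1.63 and 2.90 inside runs 1 and 2. The 4+11 day cells were lower than feeder cells by −2.91 ± 0.47 (adjusted p = 0.0103), with −2.67 blocked by run and −1.86 and −3.48 inside runs. Without feeder replicate 10 both calls were lost (adjusted p = 0.0886 and 0.124), and the second also with only both groups in the fit or without the other wash protocol (up to 0.0665). The fall from 4+8 to 4+11 days, −1.43 ± 0.42 (adjusted p = 0.0363), was lost without 4+8 day replicate 1 or 2 or any of the 4+11 day replicates (up to 0.115), and under 2 other settings (up to 0.152). Frzb, the remaining inhibitor of this family, spanned 4.60 to 128 over all arrays. Its difference at 4+11 days, 1.51 ± 0.72, did not pass (adjusted p = 0.174). Blocked by run, without weight on replicate 12, the lowest at 4+11 days, it reached 2.13 (adjusted p = 0.0286).

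Inside the cell, Axin2, a scaffold of the destruction complex and a widely used target of beta-catenin, was raised at 4+8 days. It read 33.6, 33.6 and 35.6 in undifferentiated cells, 81.2, 124 and 39.99 at 4+8 days, 24.2, 33.5 and 25.9 at 4+11 days, and 28.9 and 31.4 in feeder cells. Arrays of the 4+8 day group were above all others, replicate 3 by little. The rise of 0.97 ± 0.31 (adjusted p = 0.0352) ranged from 0.63 to 1.36 when 1 array was left out. It was lost without 4+8 day replicate 1 or 2 or any undifferentiated replicate (up to 0.0889), and under 2 other settings (up to 0.105). The fall to 4+11 days, −1.22 ± 0.31 (adjusted p = 0.0225), was lost without 4+8 day replicate 1 or 4+11 day replicate 4 or 12 (up to 0.0790), and under 2 other settings (up to 0.103). Axin1, the scaffold present in most cells, stayed between 127 and 224 over all arrays and Ctnnb1, beta-catenin itself, between 2053 and 4103, and neither was called in any comparison.

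Promoter sequences are shown for Axin2 and Dkk1, as targets of beta-catenin that were each called higher at 4+8 days, although Axin2 was highest in the replicate in which Dkk1 was lowest, and for Wnt11, which like Dkk1 was lowest in 4+8 day replicate 2. The sequences are the 250 bases before a transcript start listed in RefSeq (GRCm38.p6), written 5′ to 3′ in the direction of the gene. Windows were searched on both strands for the Tcf and Lef core, CTTTG followed by 2 letters that are each A or T, with matches in capitals. A match on the other strand ends in CAAAG. The window of Dkk1 (chr19:30549497-30549746, minus strand) held 2 matches, 110 and 91 bases before the start. The table used holds 2 windows for Wnt11. The upstream one (chr7:98834862-98835111, plus strand) held 1 match, 44 bases before the start, and the downstream one (chr7:98838595-98838844, plus strand) held none. The window of Axin2 (chr11:108920099-108920348, plus strand) held none either. RefSeq places the first base of the Wnt11 gene at 98835084, inside the upstream window, and that of Axin2 at 108917828, upstream of its window, so both genes have a further start and the upstream Wnt11 window is partly transcribed. These 3 genes were chosen after their values were seen, and which start the cells used was not tested.
Axin2 promoter, chr11:108920099-108920348: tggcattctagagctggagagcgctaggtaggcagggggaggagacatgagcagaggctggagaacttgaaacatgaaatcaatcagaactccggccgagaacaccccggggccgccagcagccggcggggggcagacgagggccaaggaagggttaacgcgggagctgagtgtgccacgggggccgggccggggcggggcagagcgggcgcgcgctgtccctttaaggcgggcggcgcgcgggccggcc
Dkk1 promoter, chr19:30549497-30549746: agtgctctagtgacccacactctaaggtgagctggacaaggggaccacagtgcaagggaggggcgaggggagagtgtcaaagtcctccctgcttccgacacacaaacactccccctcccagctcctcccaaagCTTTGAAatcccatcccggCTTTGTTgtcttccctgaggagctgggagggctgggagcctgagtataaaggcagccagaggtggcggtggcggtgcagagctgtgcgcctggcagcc
Wnt11 upstream window, chr7:98834862-98835111: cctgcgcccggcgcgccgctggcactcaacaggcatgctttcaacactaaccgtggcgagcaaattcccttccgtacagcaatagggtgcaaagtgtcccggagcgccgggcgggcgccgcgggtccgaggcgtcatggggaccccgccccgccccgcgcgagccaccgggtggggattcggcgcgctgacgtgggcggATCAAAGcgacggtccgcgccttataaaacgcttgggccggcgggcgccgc
Wnt11 downstream window, chr7:98838595-98838844: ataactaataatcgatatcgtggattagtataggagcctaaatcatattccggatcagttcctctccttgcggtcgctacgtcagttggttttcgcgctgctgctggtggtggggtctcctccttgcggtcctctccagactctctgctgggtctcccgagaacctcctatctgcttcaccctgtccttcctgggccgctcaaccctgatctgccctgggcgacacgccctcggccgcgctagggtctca
Of all 32851 promoter windows in the table, 14.8% held at least 1 match. Among windows of the Wnt genes 6 of 31 did (19.4%), in 6 of the 23 genes with a window. A match describes letters and not a bound site.

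In Lef1 and Tcf7l1 the probe sets of 1 gene gave different results. Lef1, which carries beta-catenin to DNA, was read by 2 probe sets. The first (103628_at) had intensities of 171, 163 and 176 in undifferentiated cells, 230.5, 399.7 and 172 at 4+8 days, 172, 284 and 244 at 4+11 days, and 108 and 100.2 in feeder cells, and was called nowhere. The second (103629_g_at) read 71.1, 46.3 and 63.5 in undifferentiated cells, 13.8, 20.6 and 4.90 at 4+8 days, 69.1, 153 and 105 at 4+11 days, and 8.63 and 26.3 in feeder cells. Its 4+8 day and feeder arrays lay below all undifferentiated and 4+11 day arrays.

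The fall of the second Lef1 probe set at 4+8 days was −1.75 ± 0.39 (adjusted p = 0.00673), lost with values as deposited (0.253), beside 0.54 ± 0.29 for the first (adjusted p = 0.169). From 4+8 to 4+11 days the second rose by 2.48 ± 0.39 (adjusted p = 0.00362) under every alternative run, while the first differed by −0.13 ± 0.29 (adjusted p = 0.775), a sign that turned without 4+8 day replicate 2 or 4+11 day replicate 4. Feeder cells were lower than undifferentiated cells by −1.50 ± 0.43 in the second (adjusted p = 0.0369), with −1.61 blocked by run and −1.98 and −1.06 inside runs 1 and 2. That call was lost without any one of the 5 arrays compared (up to 0.296), and under 3 other settings (up to 0.128). The 4+11 day cells exceeded feeder cells by 2.23 ± 0.43 (adjusted p = 0.0244), with 2.22 blocked by run and 2.21 and 2.23 inside runs. It was lost without 4+11 day replicate 8 or 12 or either feeder replicate (up to 0.228), and under 2 other settings (up to 0.109).

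Tcf7l1 showed the same kind of split. Probe set 160780_at read 286, 278 and 327 in undifferentiated cells, 779, 780.1 and 733 at 4+8 days, 175, 207 and 158 at 4+11 days, and 209.5 and 188 in feeder cells. The 4+8 day arrays were far above and the 4+11 day arrays below the undifferentiated ones. It rose by 1.34 ± 0.17 at 4+8 days (adjusted p = 0.000379) and fell by −2.05 ± 0.17 from there to 4+11 days (adjusted p = 0.000453), both under every alternative run. At 4+11 days it was −0.70 ± 0.17 below undifferentiated cells (adjusted p = 0.0184), with −0.64 blocked by run and −0.67 and −0.64 inside runs 1 and 2. That call was lost without 4+11 day replicate 4 or 12 or undifferentiated replicate 1 or 9 (up to 0.0783), with values as deposited and without the other wash protocol (up to 0.429). Probe set 104458_at of the same gene stayed between 158 and 276 over all arrays. Its difference was −0.16 ± 0.23 at 4+8 days (adjusted p = 0.602) and −0.10 ± 0.23 from there to 4+11 days (adjusted p = 0.789), and both signs turned under some settings.

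Of the 4 genes with 2 tested probe sets (Lef1, Tcf7l1, Lrp6 and Fzd3), the calls differed between the sets in 3 at 4+8 days against undifferentiated cells, and the signs in 3. Between both times the calls differed in 3 and the signs in 2. How often probe sets of other genes on the array differ in this way was not tested. The positions of the probes within the transcripts were not used here. Tcf7l2 was tested with 102241_f_at, which spanned 33.0 to 243 and was called nowhere.

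**Figure D3:**
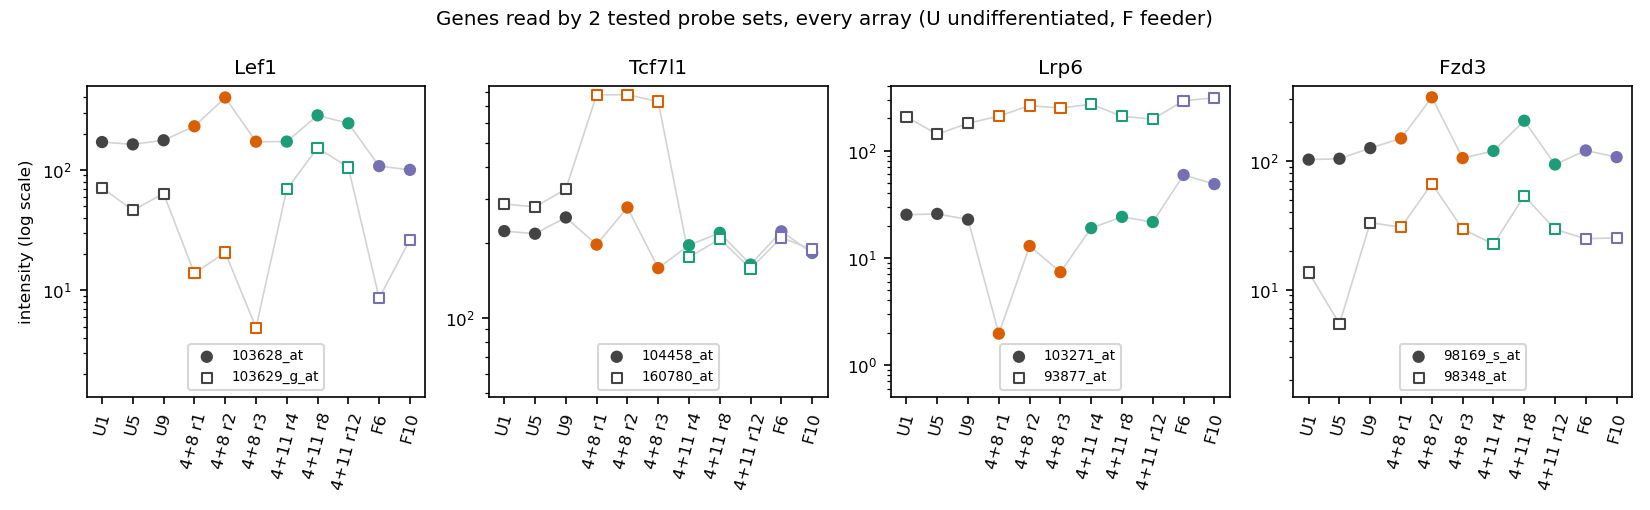
Quantile-normalised intensity (log axis) of both tested probe sets of Lef1, Tcf7l1, Lrp6 and Fzd3 on all 11 arrays, circles for one set and squares for the other, coloured by group. The Tcf7l1 sets part at 4+8 days, where 160780_at reads 733 to 780.1 and 104458_at stays within 158 to 276.

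The 13 untested probe sets were 3 of Wnt10b, 2 of Fzd4 (95771_i_at and 95772_r_at), 1 of Tcf7l2 (97660_s_at) and 1 each of Wnt2b, Wnt4, Wnt5b, Wnt6, Wnt7a, Wnt7b and Lrp5. Each stayed below the filter on at least 10 arrays. Wnt6, a ligand of epithelia, came highest with 62.5 in 4+8 day replicate 1, against 31.7 and 9.36 in replicates 2 and 3. Lrp5, the second co-receptor, read 26.8, 23.8 and 32.4 in undifferentiated cells and 8.75 to 17.4 over the 6 differentiated arrays, without overlap and without a test. That separation depended on the normalisation. As deposited, Lrp5 read 19.6, 12.4 and 18.8 in undifferentiated cells, 26, 21.3 and 18 at 4+8 days, and 12.8, 5.9 and 5.7 at 4+11 days. Both differentiated groups then overlapped the undifferentiated one.

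Differentiated replicates differed among themselves, and several Wnt genes shared the order. Of the 33 tested probe sets, 20 were highest in replicate 2 of the 4+8 day arrays, against 37.8% of all probe sets. Also 20 were highest in replicate 8 of the 4+11 day arrays, against 41.0%, and 14 were highest in both, against 20.9% of all probe sets. These 14 were of Wnt1, Wnt3, Wnt3a, Frzb, Axin2, Ctnnb1, Fzd8 and Lrp6 (103271_at), and both sets of Fzd3, Lef1 and Tcf7l1. Some led by little, as in 4+8 day replicates 1 and 2, where Tcf7l1 (160780_at) read 778.9 and 780.1 and Fzd8 126.5 and 129.8. Lrp6 (103271_at) was below the filter on every differentiated array. Replicates 2 and 8 were also highest for Fabp7, a protein of radial glia, with 411, 1320 and 22.2 at 4+8 days and 543, 4700 and 31.7 at 4+11 days. The 8 neural progenitor markers summed to 1451, 3591 and 468 at 4+8 days and to 1499, 7811 and 668 at 4+11 days. Their part in the order of the Wnt genes was not tested.

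Wnt3 read 63.1, 89.2 and 39.6 at 4+8 days and 27.6, 118.0 and 27.7 at 4+11 days. Wnt3a read 50.8, 119 and 4.45 at 4+8 days, and Frzb 8.63, 79.4 and 18.01 at 4+8 days and 34.0, 128 and 11.0 at 4+11 days. Wnt11 went the other way at 4+8 days, with 71.2, 9.65 and 54.6. Dkk1 and Sfrp1 were lowest in the same replicate, which also had the lowest fibroblast sum of its group (26808, 12118 and 43663). At 4+11 days Sfrp1 was again lowest in replicate 8, with the lowest fibroblast sum (29524, 16048 and 22986), whereas Dkk1 was highest there. The spread between replicates, as the median SD of log2 intensity, was 0.54 for the Wnt probe sets and 0.45 for all at 4+8 days, and 0.42 and 0.26 at 4+11 days.

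**Figure D4:**
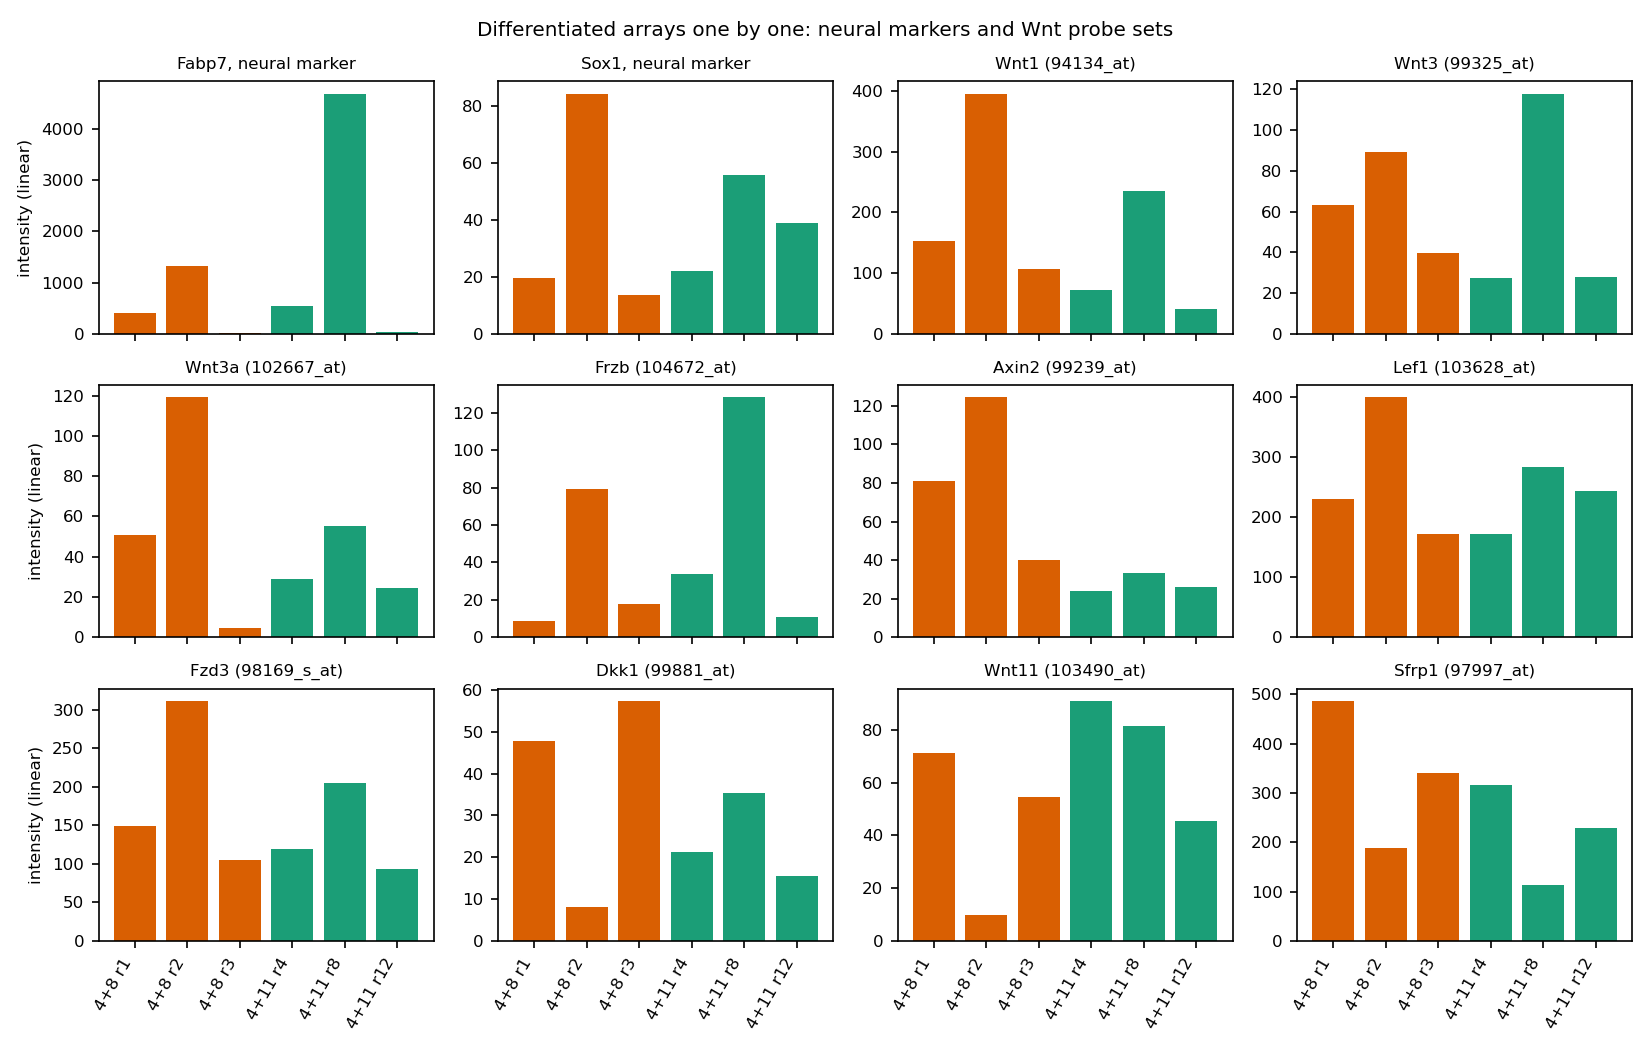
Quantile-normalised intensity (linear axis from 0) on each of the 6 differentiated arrays for the neural markers Fabp7 and Sox1 and for 10 Wnt probe sets, orange for 4+8 days and green for 4+11 days. Wnt1, Wnt3, Wnt3a and Frzb peak in 4+8 day replicate 2 and in 4+11 day replicate 8, where Fabp7 reads 1320 and 4700, while Dkk1, Wnt11 and Sfrp1 dip in 4+8 day replicate 2.

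Other genes of the pathway were taken from a list of 59, of which 35 were on the array and 31 tested. At 4+8 days 8 rose and 5 fell against undifferentiated cells, at 4+11 days 3 rose and 2 fell, and in feeder cells 3 were higher and 3 lower. From 4+8 to 4+11 days 4 rose and 2 fell, and 1 was higher at 4+11 days than in feeder cells. The shares of all probe sets called in these comparisons were 37.1%, 18.7%, 20.4%, 23.1% and 2.93%, so that 13 of 31 at 4+8 days and 5 of 31 at 4+11 days were near the background. Wls, which carries Wnt proteins to the cell surface, had intensities of 284, 422 and 234 in undifferentiated cells, 997, 1492 and 1371 at 4+8 days, 1232, 2080.2 and 1024 at 4+11 days, and 1990 and 1435 in feeder cells. Every other array exceeded the undifferentiated ones, by 2.03 ± 0.32 at 4+8 days (adjusted p = 0.00114), 2.15 ± 0.32 at 4+11 days (adjusted p = 0.00228) and 2.44 ± 0.36 in feeder cells (adjusted p = 0.00205). Blocked by run, the 4+11 day and feeder differences were 2.39 and 2.47. Ryk, a Wnt receptor outside the Frizzled family, rose by 1.51 ± 0.25 at 4+8 days (adjusted p = 0.00145). Ctbp2, a co-repressor, fell by −2.71 ± 0.20 (adjusted p = 2.91e-05). These 5 differences passed under every alternative run.

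Of 33 listed genes known as targets of the pathway in some tissue, 27 were on the array and 20 tested. At 4+8 days 2 rose and 7 fell, at 4+11 days 1 rose and 4 fell, and in feeder cells 3 were higher and 4 lower than in undifferentiated cells. From 4+8 to 4+11 days 1 rose, and 1 was lower at 4+11 days than in feeder cells. Beside these counts, 17.2% of all probe sets were higher and 19.9% lower at 4+8 days, 9.22% and 9.44% at 4+11 days, and 10% and 10.3% in feeder cells. Between both times 12.2% were higher and 10.8% lower at 4+11 days, and 1.13% and 1.80% between 4+11 day and feeder cells. The largest rise at 4+8 days was that of Id2, an inhibitor of helix-loop-helix factors, by 2.69 ± 0.48 (adjusted p = 0.00235). The largest fall was that of Sall4, which is also a pluripotency factor, by −3.86 ± 0.48 (adjusted p = 0.00035). Both passed under every alternative run. The median log2 difference of the 20 targets at 4+8 days was 0.00039, beside 0.014 over all probe sets.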

How the data were processed

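RNA of 11 cultures was measured on Affymetrix MG_U74Av2 arrays, a chip type named per the file headers. Each deposited value is the linear intensity of 1 probe set on 1 array. The software that summarised the probes and any detection calls are not given in the sources used here. The experiment files, per the file headers, gave the scan session, chip lot, fluidics run and wash protocol.

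Groups came from the sample titles. Intensities were quantile normalised over all 11 arrays, since the trimmed means (2% at each end) of the deposited intensities differed by a ratio of 2.32 and only the 4+8 day arrays shared a level. Of 12422 probe sets that are not controls, those above 33.4 (the 40th percentile) on at least 2 arrays were kept, and log2(intensity + 8) was tested by limma 3.58.1 under R 4.3.3 (lmFit and eBayes, 4 groups as the only factor, 7 residual and 3 prior degrees of freedom). The offset of 8 is the 20th percentile of the deposited intensities. Tests were two-sided, and p-values were adjusted over 8940 probe sets by the Benjamini-Hochberg method. All adjusted p-values are from these limma fits. The fit was tested on simulated data. The number of arrays limits the precision, and a group has at most 3.

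Symbols came from the platform annotation (10833 probe sets with 1 symbol, 396 with several, 1193 unnamed), and all 37 genes matched a RefSeq gene ID. Every gene of the rule is named. Values on every array are given for probe sets called in at least 1 comparison and for Lef1 (103628_at). For Wnt1, Wnt3, Wnt3a, Wnt11, Frzb, Wnt6 and Lrp5 the values of some groups are given. These uncalled probe sets were chosen after their values were seen. Other pathway and target genes are named from 2 lists where they had among the largest called changes, with 1 probe set per gene (highest mean). The genes and lists were chosen with earlier results of these data known. The alternatives were values as deposited, scaling to a common trimmed mean, 2 other offsets, no filter, a fit of only the groups compared, leaving out each array, leaving out the other wash protocol, and the run as a block for the 8 arrays that have one.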

Additional observations from a re-analysis of the deposited data

Results flagged for a closer look

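For 10 of the 33 tested Wnt probe sets the difference from undifferentiated cells at 4+11 days was itself different from that at 4+8 days, by the test of 4+11 against 4+8 days (limma, adjusted p below 0.05). The share of all tested probe sets called in that test was 23.1%. Both differences share the undifferentiated arrays, and the 4+8 day arrays had a scan session of their own. Wnt5a went from −2.09 to 0.57 (2.66 between them, adjusted p = 0.000787), Lef1 (103629_g_at) from −1.75 to 0.73 (2.48, adjusted p = 0.00362) and Lrp6 (103271_at) from −1.14 to −0.14 (1.0, adjusted p = 0.0209). Tcf7l1 (160780_at) went from 1.34 to −0.70 (−2.05, adjusted p = 0.000453), Wnt8a from 1.83 to 0.24 (−1.60, adjusted p = 0.00109) and Sfrp2 from 0.82 to −0.61 (−1.43, adjusted p = 0.0363). Wnt8a exceeded the filter at 4+8 days only, so its difference is a description. Lrp6 (103271_at) exceeded the filter in feeder cells only, so all its values compared here lay below it. Its call was lost without any of the 4+11 day replicates and under 5 other settings (adjusted p up to 0.791). Axin2 went from 0.97 to −0.25 (−1.22, adjusted p = 0.0225), Fzd8 from 0.97 to −0.10 (−1.07, adjusted p = 0.00354), Wnt10a from 1.01 to 0.09 (−0.92, adjusted p = 0.0214) and Fzd2 from 1.75 to 0.88 (−0.87, adjusted p = 0.0412). Every 4+11 day array lay on the same side of the 4+8 day arrays in each of the 10. The 10 were picked by a test on these same arrays, so this adds no support, and the share over all probe sets is not given. Lrp6 (93877_at), Lef1 (103628_at) and Tcf7l1 (104458_at), the other probe sets of 3 of these genes, were not called between both times.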

How the results depend on the processing

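Of the 41 calls on Wnt probe sets, 15 held when any 1 array of the groups compared was left out, and 13 held under every alternative run. By comparison these 13 were 7 of 15 at 4+8 days and 0 of 4 at 4+11 days against undifferentiated cells, 5 of 10 between both times, 1 of 10 in feeder cells and 0 of 2 between 4+11 day and feeder cells. Among the 13 are the calls of Wnt8a, which exceeded the filter at 4+8 days only, so those calls are a description. Values as deposited moved the median of all probe sets by 1.07 at 4+8 days, 0.26 at 4+11 days and 0.32 in feeder cells against undifferentiated cells, and by −0.65 between both times. In that order, the Wnt probe sets called numbered 29 (28 higher), 5 (5 higher), 10 (10 higher) and 18 (2 higher). All probe sets called numbered 6052, 1732, 1950 and 3733. Scaled to a common trimmed mean (medians of 0.27 at 4+8 days and −0.16 between both times), 15 of 17, 4 of 5, 8 of 9 and 2 of 11 were higher, and 1 of 3 between 4+11 day and feeder cells under both scalings. Of all probe sets called, 93.6%, 82.5%, 83.7% and 5.49% were higher as deposited, in the same order. Scaled, these shares were 62.5%, 50.5%, 49.2% and 30.9%. Between 4+11 day and feeder cells they were 25.2% as deposited and 42.3% scaled. As deposited, Dkk3 at 4+8 days turned to 0.10 and Tcf7l1 (104458_at) to 0.66. With an offset 4 times larger, 5 Wnt probe sets were called between 4+11 day and feeder cells. With only the groups compared in the fit, the Wnt calls numbered 8 at 4+11 days, 5 between both times and 0 between 4+11 day and feeder cells, and all calls 535 between both times and 3326 in feeder cells. Without the arrays of the other wash protocol, the Wnt calls numbered 1 at 4+11 days, 5 in feeder cells and 0 between 4+11 day and feeder cells. All calls there were 2076 at 4+8 days, 406 at 4+11 days, 909 between both times, 780 in feeder cells and 124 between 4+11 day and feeder cells, with fewer arrays, and Tcf7l1 (104458_at) turned to 0.012 between both times. With the run as a block, 10 Wnt probe sets were called at 4+11 days, and all calls were 3135 in feeder cells and 616 between 4+11 day and feeder cells. Where a Wnt count has no count over all probe sets of the same comparison beside it, it is not read as a result about the Wnt genes. Run 3 held 1 array, 4+11 day replicate 12, so the run as a block gives that array no weight in the 4+11 day differences. Leaving out 1 array gave 10 to 15 Wnt calls at 4+8 days, 0 to 3 at 4+11 days, 5 to 11 between both times, 1 to 6 in feeder cells and 0 to 2 between 4+11 day and feeder cells, and 2275 to 3731, 778 to 1565, 969 to 2420, 487 to 1228 and 47 to 256 calls over all probe sets. Where it leaves 1 feeder array, that array is assumed to vary like the other groups. Tcf7l1 (104458_at) ranged from −0.37 to 0.018 at 4+8 days, positive without 4+8 day replicate 3, and from −0.27 to 0.11 between both times, positive without 4+8 day replicate 2 or 4+11 day replicate 12. Lef1 (103628_at) ranged from −0.40 to 0.19 between both times, positive without 4+8 day replicate 2 or 4+11 day replicate 4. The cause of these changes was not tested, apart from the smaller number of arrays in fits that leave some out. No paired analysis was possible because the groups compared share fewer than 2 replicate numbers. The background correction was not varied.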
